A study of Mus musculus with 22 samples.

Results

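The transcripts of 5 cell surface receptor genes were followed in mouse liver: Egfr, Erbb2 and Erbb3 of the ErbB family, the hepatocyte growth factor receptor gene Met, and the vasopressin receptor gene Avpr1a. They were chosen by the names EGFR, ERBB2, ERBB3, MET and AVPR1A in the deposited table, 5 of 19919 genes named on the array, and Egfr and Avpr1a stand among them because both were already known to be lower in one of the diet contrasts of these mice. Of the 5 genes, 3 (Egfr, Met and Avpr1a) were detected often enough to enter the tests, which covered 9881 genes in all. Liver RNA of 22 male C57BL/6J mice aged 29 weeks was measured, 1 array per mouse. Each group is named by 2 letters, the diet of the dam before and during gestation and lactation first and the diet of the weaned male second, with W for a western type diet and L for a low-fat control diet. WW mice (n = 6) had W in both periods, WL mice (n = 5) had W through the dam only, LW mice (n = 5) had W after weaning only, and LL mice (n = 6) had L in both. Dams began their diet at 5 weeks of age and were mated 6 weeks later, and offspring were fed for 24 weeks. Before deposit the submitters had dropped 2 mice, 1 called an experimental and 1 a biological outlier. No litter is given, so each mouse was treated as independent, and littermates cannot be told apart from unrelated mice.

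Epidermal growth factor receptor, the product of Egfr, is a tyrosine kinase of the cell surface that dimerises on binding ligands such as EGF or TGF-alpha and signals through the Ras and MAP kinase cascade and through PI3 kinase. ErbB2 has no known soluble ligand and serves as a dimer partner, while ErbB3 binds neuregulins and has a weak kinase. Met binds hepatocyte growth factor, and together with the EGF receptor it is known for its part in hepatocyte proliferation during liver regeneration. Avpr1a encodes the V1a vasopressin receptor, which couples to Gq proteins, raises calcium in hepatocytes and thereby promotes glycogen breakdown.

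The promoters of Egfr and Avpr1a are shown because these receptor transcripts varied together across the livers. RefSeq (GRCm38.p6) gives promoter sequence for 4 of the 5 genes. The 250 bases before the annotated start of Egfr lie at chr11:16751953-16752202 on the plus strand, and those of Avpr1a at chr10:122448249-122448498 on the plus strand, both written 5′ to 3′ with capitals marking motif matches.
Egfr promoter: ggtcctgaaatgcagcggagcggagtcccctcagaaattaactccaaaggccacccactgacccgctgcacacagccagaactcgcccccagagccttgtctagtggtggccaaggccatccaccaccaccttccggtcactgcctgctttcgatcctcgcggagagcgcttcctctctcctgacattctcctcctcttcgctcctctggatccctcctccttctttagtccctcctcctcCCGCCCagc
Avpr1a promoter: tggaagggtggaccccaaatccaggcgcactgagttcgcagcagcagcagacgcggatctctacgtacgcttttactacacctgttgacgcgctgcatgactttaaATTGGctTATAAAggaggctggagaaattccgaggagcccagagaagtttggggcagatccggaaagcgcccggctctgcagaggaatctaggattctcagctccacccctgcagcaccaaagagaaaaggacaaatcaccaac
The capitals in Egfr are a GC box (GGGCGG, read here on the minus strand), 9 bases before the start. Those in Avpr1a are a CCAAT box (CCAAT, on the minus strand) beginning 144 bases before the start and a TATA box (TATAAA) beginning 137 bases before it. Over 32851 mouse promoters of the same length, searched on both strands, 32.7% held the GC box, 33.8% the CCAAT box and 12.4% the TATA box. Neither window held the STAT5-type motif TTCNNNGAA, present in 7.02% of promoters, the cAMP response element TGACGTCA (1.55%) or the E-box CACGTG (6.02%). No motif searched was in both windows. The G and C content was 60.8% in Egfr and 53.6% in Avpr1a, against a median of 52.4% over all promoters.

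Egfr was read by 4 probes, of which the brightest, ILMN_3128725, was detected on all 22 arrays and is the one tested. All levels below are normalised log2 intensities, on which a difference of 1 is a doubling, and levels of different genes or probes are not comparable because each probe binds with its own strength. In WW livers Egfr ran from 8.37 (lowest) over 8.72 (median) to 9.52 (highest), and in WL livers it was 10.34, 9.64, 9.83, 9.99 and 11.34. Every WW value lay below every WL value. In LW livers it was 9.09, 9.71, 9.42, 8.88 and 8.25, and in LL livers it ran from 9.58 over 9.99 to 10.80. The LW and LL groups overlapped through LW replicate 2 alone, whose 9.71 lay above the lowest LL value of 9.58. With this probe 10 of the 11 livers of mice fed W after weaning lay below every liver of a mouse fed L. The count was 7 with probe ILMN_3052260 and 5 with ILMN_2693922. It takes in the WW and WL mice that led to the choice of the gene, so it is a description. The group means were in the order WL 10.23 ± 0.67, LL 10.09 ± 0.53, LW 9.07 ± 0.56 and WW 8.84 ± 0.48 (SD; n = 5, 6, 5 and 6). The first pair in that order, and likewise the last pair, differed by less than the SD of either group.

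Mice fed W after weaning had lower Egfr levels on average than mice fed L, whichever diet the dam had. Between LW and LL livers, which did not serve to choose the gene, Egfr was 2.02-fold lower in LW (log2 difference -1.02 ± 0.30, SE, 95% interval -1.64 to -0.39). It ranked 21st from the lowest among 9881 genes by the size of the difference. That rank takes no account of the spread within groups, which for Egfr was larger than in 97.5% of genes. The exact two-sided permutation test over the 462 splits of these 11 livers gave p = 0.0195, unadjusted. Over all 9881 genes the limma adjusted p was 0.121, so Egfr did not pass the 0.05 threshold, which 24 genes (0.243%) did in LW against LL, 15 of them (0.152%) lower in LW. A further count, of genes lower in every LW than in every LL liver, was 106 (1.07%), and Egfr was not among them. In WW against WL, the contrast that led to the choice of the gene, Egfr was 2.61-fold lower in WW (log2 difference -1.39 ± 0.30), which is given as a description with no test. There 47 genes (0.476%) were called, 25 of them (0.253%) lower in WW, and 77 (0.779%) were lower in every WW than in every WL liver. The counts of called genes moved with single mice, to between 3 (without WL replicate 5) and 81 (without WL replicate 2) in WW against WL, and to between 4 (without LW replicate 5) and 87 (without LL replicate 1) in LW against LL. Just inside the threshold of the WW and WL contrast lay Mis18a (log2 difference 0.55, limma adjusted p = 0.0495) and just outside it Cpeb4 (-0.54, adjusted p = 0.0506).

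By the diet of the dam, the Egfr difference of the tested probe was smaller than its error in both comparisons of the fit without slides. WL livers were 0.14 ± 0.30 above LL livers on the log2 scale, and without WL replicate 5 this difference was -0.14. WW minus LW was -0.23 ± 0.30. With slide as a fixed term the differences were 0.36 ± 0.27 for WL minus LL and -0.40 ± 0.26 for WW minus LW. Probe ILMN_3052260 gave 0.38 ± 0.32 and -0.43 ± 0.32, ILMN_2693922 gave 0.076 ± 0.38 and -0.30 ± 0.38, and the dim ILMN_2614432 gave -0.31 ± 0.22 and -0.66 ± 0.22. Both comparisons share mice with WW against WL and are given without a test, in comparisons where 0 genes (0%) were called by limma, where 468 genes had an unadjusted p under 0.05 for WL set against LL, and 989 for WW set against LW. With the replicate block, which the check of the numbers allows for WL set against LL, the count of 0 there became 2, and Egfr was then 0.21 ± 0.30. The difference between both diet effects after weaning (WW minus WL, less LW minus LL) was -0.37 ± 0.43.

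**Figure D1:**
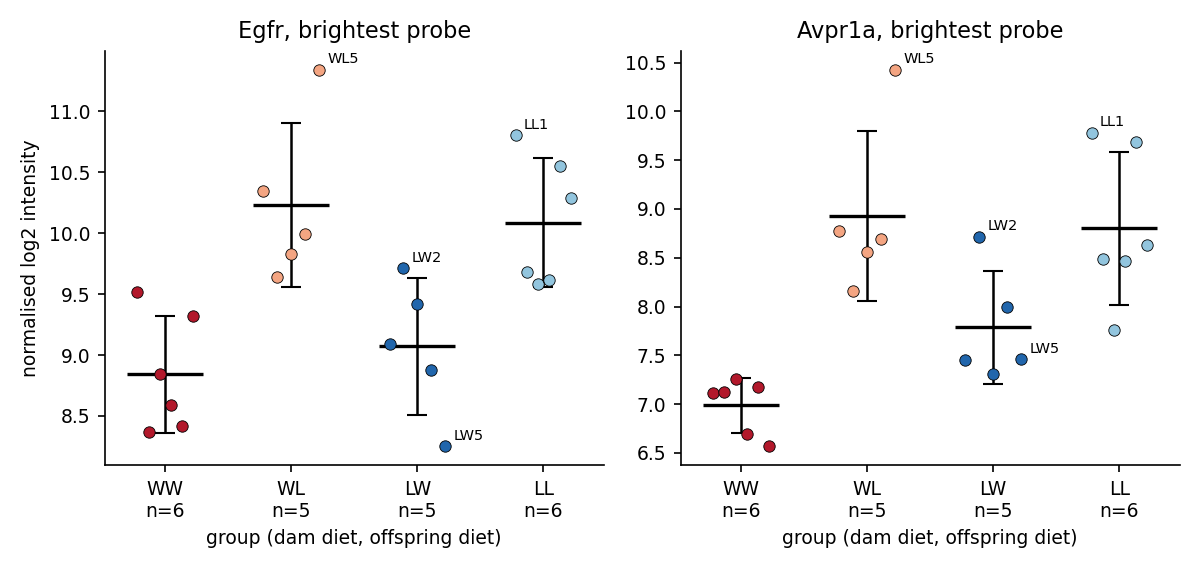
Normalised log2 intensity of Egfr (left, probe ILMN_3128725) and Avpr1a (right, probe ILMN_2890935) in each of 22 livers, by group, with the group mean (wide bar) and 1 SD (error bar). WW and WL livers do not overlap in either gene, and WL5 is the highest liver in both. That contrast led to the choice of both genes, and 0.779% of all genes were lower in every WW than in every WL liver.

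The other Egfr probes did not all give the same size of difference. ILMN_3052260 and ILMN_2693922 were detected on all 22 arrays, and ILMN_2614432, close to background, on 12. Between LW and LL livers the log2 differences were -0.71 ± 0.32 for ILMN_3052260 (limma adjusted p = 0.293), -0.66 ± 0.38 for ILMN_2693922 (adjusted p = 0.419) and -0.12 ± 0.22 for ILMN_2614432 (adjusted p = 0.834), adjusted over 16268 probes. All were negative and none passed. The exact two-sided permutation p, unadjusted, was 0.0887, 0.171 and 0.656 for these probes in the same order. Between WW and WL livers the same probes differed by -1.52 ± 0.32, -1.04 ± 0.38 and -0.47 ± 0.22, described without a test. ILMN_2614432 was detected in 0 of 6 WW, 3 of 5 WL, 4 of 5 LW and 5 of 6 LL livers.

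Across the 22 livers ILMN_3128725 followed ILMN_3052260 closely (Pearson r = 0.969) and ILMN_2693922 less closely (r = 0.753). These are descriptions over mice that share groups. Among the livers where they parted most were LW replicate 2, where ILMN_2693922 read 10.47 while ILMN_3128725 read 9.71, and LL replicate 1, where they read 9.36 and 10.80. The log2 ratio of ILMN_2693922 to ILMN_3128725 on one array thus ran between -1.44 in LL replicate 1 and 0.76 in LW replicate 2, with -1.17 in WL replicate 3 and -1.14 in WL replicate 5. Of 3 probe pairs whose ratio was compared after seeing the data, ILMN_3052260 to ILMN_3128725 was 0.31 higher in LW (-0.29 ± 0.20) than in LL livers (-0.60 ± 0.14; SD, n = 5 and 6; exact permutation p = 0.0152, 0.0456 adjusted over the pairs). Among offspring of W dams it ran the other way, with -0.49 ± 0.20 in WW and -0.36 ± 0.16 in WL livers (SD, n = 6 and 5, not tested). The positions of the probes on the Egfr transcripts were not used here.

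**Figure D2:**
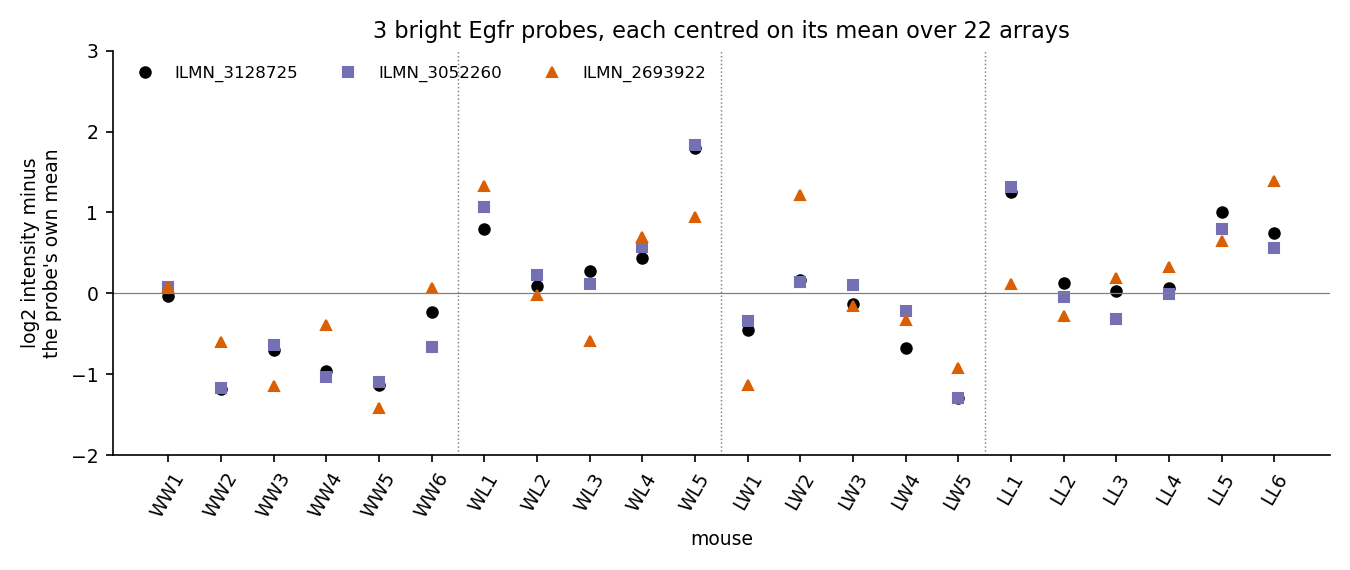
Log2 intensity of the 3 bright Egfr probes in each of 22 livers, each probe centred on its own mean over all arrays, with dotted lines between the groups WW, WL, LW and LL. Circles and squares lie close together (r = 0.969), while triangles (ILMN_2693922) part from them, most in LW2 and LL1.

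Avpr1a was read by 2 probes, and ILMN_2890935, detected on all 22 arrays, is the one tested. WW livers ran from 6.57 over 7.12 to 7.25 log2 units, a narrow range. WL livers had 8.78, 8.16, 8.56, 8.70 and 10.43, all above every WW liver. This contrast led to the choice of the gene, and 77 of 9881 genes (0.779%) were lower in every WW than in every WL liver. LW livers had 7.46, 8.72, 7.31, 7.99 and 7.46, and LL livers ran from 7.76 over 8.56 to 9.78. As with Egfr, LW replicate 2 was the highest LW liver and overlapped with LL, here joined by LW replicate 4. The order of the means was WL 8.92 ± 0.87, LL 8.80 ± 0.78, LW 7.79 ± 0.58 and WW 6.99 ± 0.28 (SD; n = 5, 6, 5 and 6). WL and LL differed by less than their SD, while the mean of WW lay further below LW than the SD of either group.

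In LW against LL, Avpr1a was 2.02-fold lower in LW (log2 difference -1.01 ± 0.35, SE, 95% interval -1.74 to -0.29), the 23rd lowest difference of 9881. This rank too takes no account of the spread within groups, which for Avpr1a was larger than in 98.6% of genes. The exact two-sided permutation test gave p = 0.0411, unadjusted, and the limma adjusted p over all genes was 0.175. Avpr1a thus did not pass the threshold in this comparison. In WW against WL the level was 3.83-fold lower in WW (log2 difference -1.94 ± 0.35), a description without a test because this contrast chose the gene. Without WL replicate 5 the difference was -1.56, and for Egfr it was then -1.11. The dimmer probe ILMN_1242999 was detected in 2 of 6 WW, 5 of 5 WL, 3 of 5 LW and 6 of 6 LL livers. Its differences were -0.81 ± 0.22 between WW and WL and -0.25 ± 0.22 between LW and LL (limma adjusted p = 0.622 over 16268 probes, exact permutation p = 0.331, unadjusted).

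By the diet of the dam, the Avpr1a difference was -0.80 ± 0.35 for WW minus LW and 0.12 ± 0.35 for WL minus LL. The second difference was -0.25 without WL replicate 5, 0.42 ± 0.33 with slide as a fixed term, and 0.063 ± 0.34 with the replicate block. The dimmer probe gave -0.26 ± 0.22 and 0.29 ± 0.22, and the first difference was -0.30 ± 0.17 in the deposited series matrix, on whose scale differences are smaller. Neither was tested, for the reason given for Egfr. The difference between both diet effects after weaning was -0.92 ± 0.50. Avpr1a and Egfr varied more among mice of one group than most genes did. Their SD within groups, pooled over the 4 groups, was 0.66 and 0.56, larger than in 98.6% and 97.5% of genes, whose median was 0.26.

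The arrays lay on 4 slides that the groups filled unevenly, so differences were also taken within slides. For LW against LL, slide 1 (2 LW, 1 LL) gave -1.40 for Egfr and -1.70 for Avpr1a, and slide 3 (1 LW, 2 LL) gave -1.38 and -0.66. For WW against WL, slide 2 (2 of each) gave -1.28 for Egfr and -1.49 for Avpr1a, and slide 4 (2 WW, 1 WL) gave -2.47 and -3.56, the WL array there being WL replicate 5. For the tested probes the differences of LW against LL were all negative, with 1 to 2 arrays on each side. Those of WW against WL were negative too, but that contrast led to the choice of the genes, so nothing is read from their sign. The LL array on slide 1 was LL replicate 1, the highest LL liver in both genes. The LW array on slide 3 was LW replicate 5, the lowest LW liver for Egfr. On slides 1 and 3, LW against LL was -1.42 and -1.12 with ILMN_3052260, and -0.066 and -0.88 with ILMN_2693922. With ILMN_2614432 it was -0.42 and 0.11, and with the dimmer Avpr1a probe -0.40 and -0.27. With slide as a fixed term, LW against LL gave -1.01 for Egfr (limma adjusted p = 0.211) and -0.94 for Avpr1a (adjusted p = 0.320). Over the alternatives tried, including the other probes, the adjusted p ran from 0.0677 to 0.834 for Egfr and from 0.0913 to 0.622 for Avpr1a.

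Met was near background on these arrays. Its only probe was detected on 19 of 22 arrays, with a mean of 5.22 ± 0.33 in WW, 5.30 ± 0.29 in WL, 5.21 ± 0.46 in LW and 5.25 ± 0.22 in LL livers (SD; n = 6, 5, 5 and 6). Single livers ran from 4.80 to 5.62 in WW, and were 5.17, 5.10, 5.01, 5.60 and 5.63 in WL. They were 5.14, 4.52, 5.37, 5.25 and 5.79 in LW, and ran from 4.84 to 5.50 in LL, so all groups overlapped. LW and LL differed by -0.033 ± 0.19 log2 units (95% interval -0.42 to 0.36, limma adjusted p = 0.954, exact permutation p = 0.883). WL and LL differed by 0.054 ± 0.19 (adjusted p = 0.996), WW and LW by 0.0064 ± 0.19 (adjusted p = 0.992), and WW and WL by -0.081 ± 0.19. A signal this close to background compresses differences, so the interval bounds the measured signal and not the transcript.

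Erbb2 and Erbb3 were not measured reliably enough to compare. The Erbb2 probe was detected in 1 of 6 WW livers and 1 of 5 WL livers, and in 0 of 5 LW and 0 of 6 LL livers. The Erbb3 probe was detected in none of the 22. After background subtraction its deposited intensity lay between -13.8 and 11 intensity units. Both genes stayed outside the tests, and "not detected" here refers to these 2 probes.

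**Figure D3:**
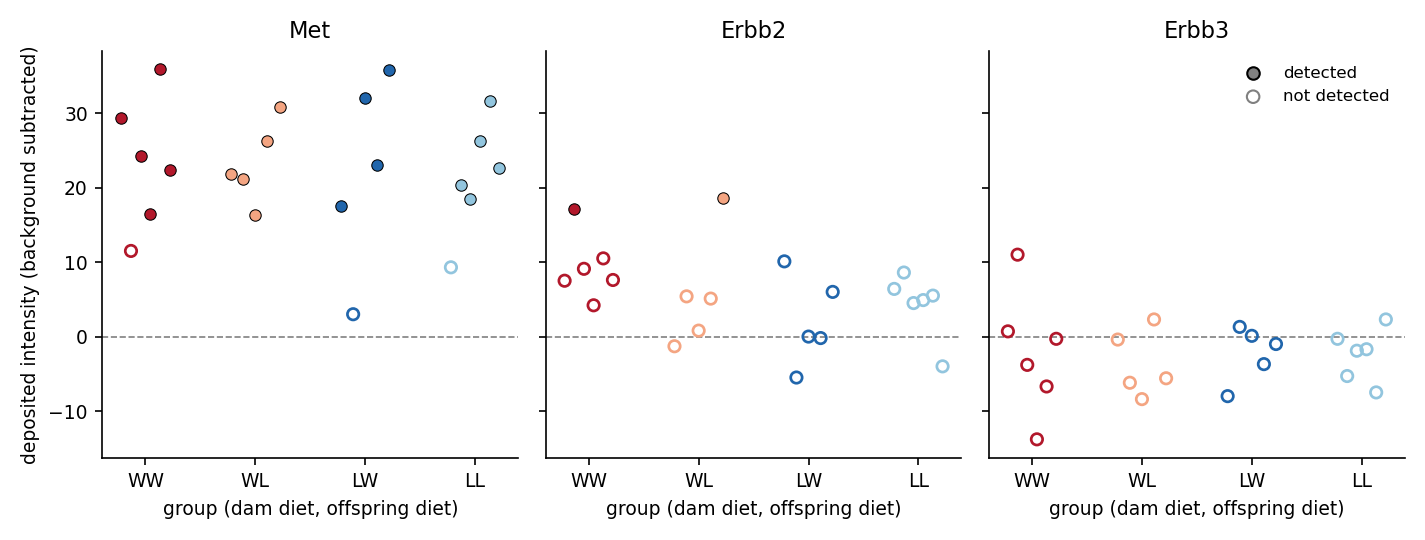
Deposited intensity, after background subtraction, of the single probes of Met, Erbb2 and Erbb3 in each liver by group, with filled points where the detection p was under 0.05 and open points where it was not. Met was detected on 19 of 22 arrays, Erbb2 on 2 and Erbb3 on 0, and the groups overlap in all 3 genes.

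The tested probes of Egfr and Avpr1a tended to be high and low in the same livers. Their Pearson r over 22 livers was 0.869 (Spearman rho = 0.875), and 0.70 for the deviations from the group means. Without WL replicate 5 these were 0.825 and 0.595. With the other bright Egfr probes the r with Avpr1a was 0.875 for ILMN_3052260 and 0.61 for ILMN_2693922. For the deviations it was 0.726 and 0.325. Both genes were taken up for falling in WW against WL, so a positive r over all livers follows in part from the choice. The points share 4 groups and 4 slides, so the values are descriptions. WL replicate 5 was the highest liver for both tested probes, and the 8 lowest livers of each were all from mice fed W after weaning. With ILMN_3052260, ILMN_2693922 and the dimmer Avpr1a probe ILMN_1242999 it was 7 of the 8 lowest. These counts take in the WW and WL mice that led to the choice, so nothing is read from them. The r of Met with Egfr was 0.0139 and with Avpr1a 0.0412. The mean intensity of the array had an r of -0.0784 with Egfr and -0.118 with Avpr1a, and the number of probes detected -0.207 and -0.342.

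**Figure D4:**
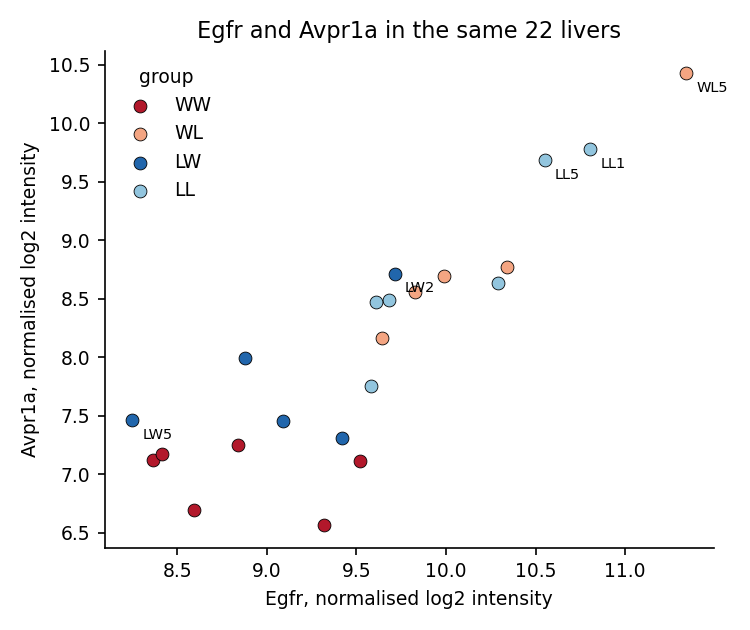
Egfr (x axis) against Avpr1a (y axis), normalised log2 intensity of the brightest probe of each in 22 livers, coloured by group. The points rise together (r = 0.869), with WL5 at the upper end and WW livers at the lower left.

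Genes around these receptors were taken from 13 lists, of which the 12 with measured members held 169 tested genes of 230 listed. In WW against WL 6 of the 169 (3.55%) were called, all lower in WW, against 0.476% of all genes. In LW against LL 1 (0.592%) was called, lower in LW, against 0.243% of all. At such low shares over all genes, a count of 0 in a short list below is not read as a result. By the diet of the dam 0 of the 169 were called. Without WL replicate 5 the 6 calls became 0, and without WW replicate 2 they became 3. The 1 call in LW against LL became 3 without LW replicate 2 and without LL replicate 1, and 2 without WL replicate 5, WW replicate 3 or LL replicate 3. All calls but 1 were in the male-biased list, which had been taken up knowing that such genes fell in these mice. Nothing is therefore read from the shares called among the 169.

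Of 11 ErbB ligand genes only Btc (betacellulin) and Nrg4 (neuregulin 4, a ligand of ErbB4) were detected well enough to test. Egf, Tgfa, Hbegf, Areg and Ereg were among the 9 not tested. Nrg4 ran from 6.44 over 6.82 to 7.22 in WW livers, against 6.23, 6.15, 6.37, 6.18 and 5.71 in WL livers. It was 7.49, 6.27, 6.49, 6.79 and 6.81 in LW livers and ran from 5.44 over 5.99 to 6.78 in LL livers. The differences were 0.71 ± 0.21 in WW against WL (limma adjusted p = 0.136) and 0.75 ± 0.21 in LW against LL (adjusted p = 0.110), with no overlap in the first and overlap in the second. Genes higher in every WW than in every WL liver numbered 103 (1.04%). Btc differed by 0.27 ± 0.24 and -0.085 ± 0.24. Among 8 tested genes of HGF and its activation 0 were called, with a median log2 difference of 0.069 in WW against WL and 0.11 in LW against LL. Hgf itself, the ligand of Met, differed by 0.37 ± 0.19 and -0.26 ± 0.19, and Hgfac, a protease that activates it, by -0.11 ± 0.15 and 0.41 ± 0.15. None of the 5 genes for vasopressin, oxytocin and their other receptors was detected well enough to test.

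Among other receptors of the liver surface 0 were called in WW against WL or in LW against LL. This is near the share over all genes, 0.476% and 0.243%, and is not read as a result about these receptors. Of 20 further receptor tyrosine kinases 0 were called, with 8 lower and 12 higher by sign in WW against WL and 10 each way in LW against LL. Insr, the insulin receptor, differed by -0.30 ± 0.11 in WW against WL (limma adjusted p = 0.237) and by 0.059 ± 0.11 in LW against LL (adjusted p = 0.848). Kit differed by -0.33 ± 0.13 and 0.34 ± 0.13, and Flt1, a VEGF receptor, by -0.38 ± 0.13 and -0.097 ± 0.13. Among 28 other receptors known from hepatocytes the median differences were -0.024 and 0.034, again with 0 called. Those with the smallest p were Tnfrsf1a, the first TNF receptor (0.49 ± 0.15 and 0.37 ± 0.15), Klb, the co-receptor of FGF21 (-0.45 ± 0.16 and -0.40 ± 0.16), and Asgr1, a subunit of the asialoglycoprotein receptor (0.052 ± 0.14 and 0.45 ± 0.14).

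Downstream of the ErbB and Met receptors, 0 of 18 adaptor and kinase genes were called, with medians of -0.013 in WW against WL and -0.043 in LW against LL. Braf, a kinase below Ras, differed by 0.12 ± 0.17 in WW against WL and -0.66 ± 0.17 in LW against LL (limma adjusted p = 0.0880), and Mapk3, which encodes ERK1, by 0.47 ± 0.17 and 0.22 ± 0.17. Of 14 brakes of these receptors 0 were called, with medians of -0.16 and -0.036. Lrig1, which lowers ErbB receptor levels, differed by -0.41 ± 0.14 and 0.25 ± 0.14. Socs2, a feedback inhibitor induced by growth hormone, differed by -0.72 ± 0.42 and -1.01 ± 0.42 (limma adjusted p = 0.246 in LW against LL). Of 10 genes known for a rapid response to growth factors 0 were called, and Ccnd1, cyclin D1, differed by 0.87 ± 0.32 and 0.51 ± 0.32. Of 16 genes of Gq and calcium signalling, the pathway of the V1a receptor, 0 were called. Plcb3, a phospholipase C that Gq activates, differed by -0.063 ± 0.18 in WW against WL and 0.63 ± 0.18 in LW against LL (adjusted p = 0.112). Phka2, a subunit of phosphorylase kinase, differed by 0.16 ± 0.10 and 0.35 ± 0.10 (adjusted p = 0.114).

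Among 20 tested genes known to be more active in male than in female mouse liver, 5 were called lower in WW against WL and 1 in LW against LL, with medians of -0.84 and -0.40. Over all genes 0.253% were called lower in WW and 0.152% lower in LW. This list was taken up knowing that such genes fell in these mice, so nothing is read from its calls. Without WL replicate 5, 0 genes of the lists were called in WW against WL. Median differences over all genes were -0.0050 and 0.010. In WW against WL the called genes of this list included Hsd3b5, a steroid dehydrogenase (-4.90 ± 0.88, limma adjusted p = 0.0130), and Cyp4a12b, a fatty acid hydroxylase (-2.66 ± 0.46, adjusted p = 0.0122). The others were Elovl3, a fatty acid elongase (-1.79 ± 0.32, adjusted p = 0.0131), Mup4, a major urinary protein (-1.72 ± 0.33, adjusted p = 0.0197), and the complement gene C8b (-1.32 ± 0.29, adjusted p = 0.0396). In LW against LL Cyp4a12b passed (-2.81 ± 0.46, adjusted p = 0.00625). The Mup and Cyp4a12 families hold near-identical copies, and whether these probes part them was not tested. The other call in WW against WL was Cdh1, which encodes E-cadherin and is higher around the portal vein (-0.77 ± 0.17, adjusted p = 0.0342), with a level near background and detection in 2 of 6 WW and 5 of 5 WL livers. In the growth hormone and STAT5 list 0 of 9 genes were called, and Igfals, the acid labile subunit of circulating IGF complexes, differed by -0.64 ± 0.19 in WW against WL and 0.14 ± 0.19 in LW against LL. Of 13 pericentral genes 0 were called. Among 13 periportal ones Cdh1 was called in WW against WL and 0 in LW against LL.

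**Figure D5:**
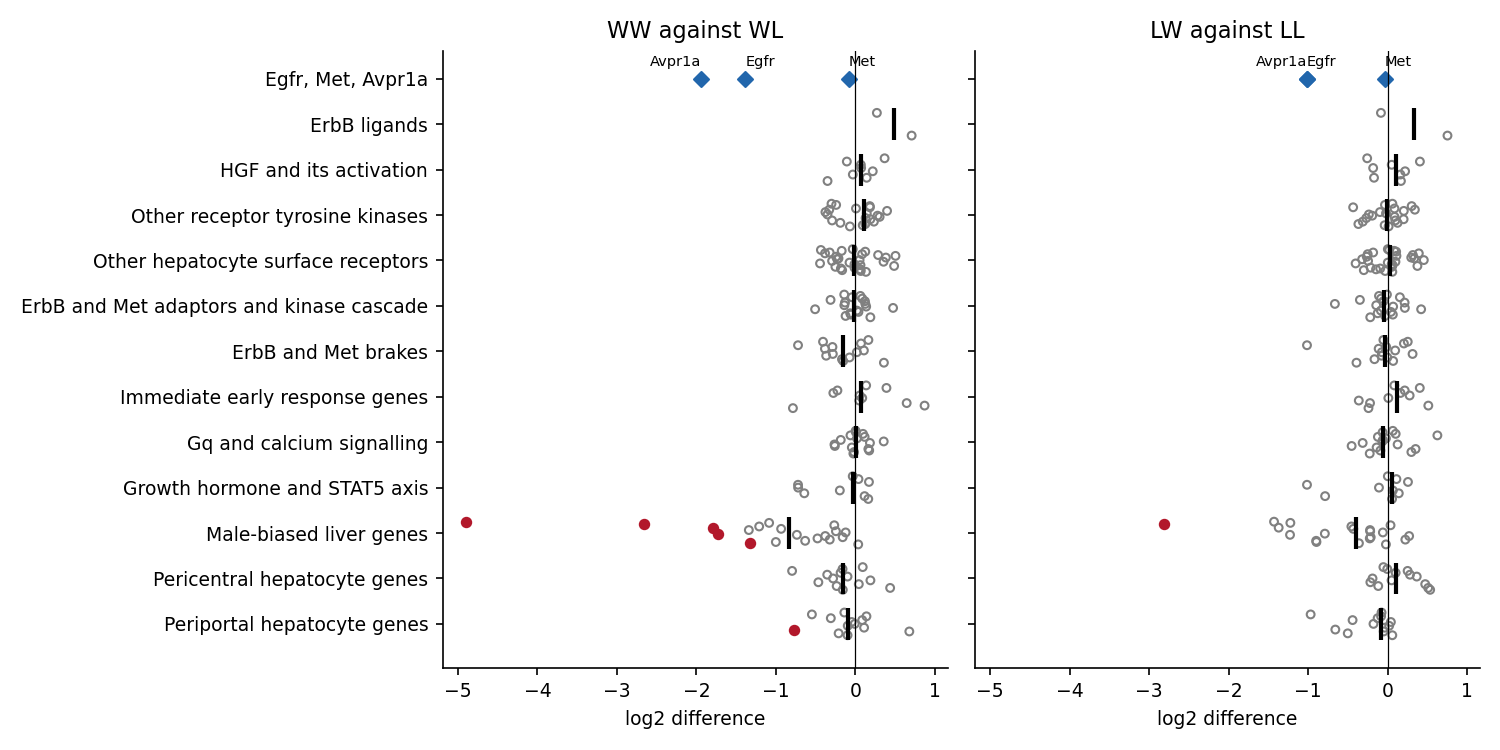
Log2 difference of each tested gene (points) by list, WW against WL (left) and LW against LL (right), with the list median (bar), filled points where the limma adjusted p was under 0.05, and Egfr, Met and Avpr1a as diamonds in the top row, whichever their p. Filled points lie in the male-biased list in both comparisons, and in the periportal list (Cdh1) in WW against WL.

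Among the 8 genes whose levels followed Egfr most closely over the 22 livers were Serpine2, a protease inhibitor (Pearson r = 0.902), C8b (0.902), Elovl3 (0.878), Cyp4a12b (0.871), Avpr1a (0.869), Zfp715 (0.858) and Crip2 (0.848). Among the 8 most alike to Avpr1a were Elovl3 (0.898), Serpine2 (0.887), Lrfn3 (0.879), Cyp7b1, an oxysterol hydroxylase (0.875), Lman2l (0.871), Egfr (0.869) and C8b (0.860). Serpine2, C8b and Elovl3 were in both sets. In each set 3 of 8 genes belonged to the male-biased list. Genes running opposite to Egfr were Rcan2 (-0.889), Mgst3 (-0.870) and Exoc4 (-0.863), and opposite to Avpr1a Tmem237 (-0.906), Thrsp, a lipogenic gene (-0.905), and Snurf (-0.896). Taken as deviations from the group means, the r of these genes with Egfr ran between 0.674 (Cyp4a12b) and 0.887 (Serpine2), and with Avpr1a between 0.70 (Egfr) and 0.836 (Cyp7b1). Of the 20 male-biased genes tested, 15 had an r above 0.5 with Egfr and 12 with Avpr1a. Since both receptors and that list were taken up for falling in these mice, a positive r follows from the choice, and nothing is read from the count. For deviations from the group means the counts were 11 and 9 of 20, while 4.37% and 6.04% of all genes had such an r, values that describe the same mice. All these values describe the same 22 livers, which share diet groups and slides.

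Liver identity and admixed tissue were read from marker genes in the same RNA. Of 10 hepatocyte markers 9 were measured (Tat was not), and their summed linear intensity ran from 138326 to 163954 in WW, 157447 to 164210 in WL, 142398 to 163069 in LW and 137374 to 168847 in LL livers, with an r of 0.437 with Egfr and 0.412 with Avpr1a. The 3 measured adipocyte markers of 7 were Cfd, Lep and Cidec. Adipoq, Retn, Plin1 and Fabp4 had no matched probe that passed the detection filter. The summed intensity of the 3 was 324 to 2484 in WW, 96.1 to 647 in WL, 362 to 1259 in LW and 100 to 622 in LL livers. This sum had an r of -0.762 with Egfr and -0.752 with Avpr1a. By sign, 2 of the 3 were higher and 1 lower in WW against WL, and likewise in LW against LL. The brightest markers weigh most in such a sum. The 4 measured erythroid markers of 5 had an r of -0.575 and -0.611, the 6 of 7 hepatic stellate cell markers -0.427 and -0.637, the 3 of 7 cholangiocyte markers -0.163 and -0.428, and the 6 of 8 Kupffer cell and macrophage markers -0.23 and -0.396. The 3 measured markers of exocrine pancreas of 13 (Cela1, Cela2a and Cela3b) had an r of 0.615 and 0.712. For 10 of the 13, Prss1, Cpa1 and Amy2a5 among them, no matched probe passed the detection filter. The sum of the 3 measured markers was 587 to 1258 in WW, 802 to 1423 in WL, 731 to 1450 in LW and 571 to 1168 in LL livers. It was highest in LW replicate 1, where Egfr was 9.09 and Avpr1a 7.46, and WL replicate 5 was the highest WL liver. Its median was 1087 in LW against 791 in LL livers, the other direction from both receptors. It was 751 in WW against 1052 in WL livers, the same direction as both receptors. Of 5 skeletal muscle markers, 0 had a matched probe that passed the detection filter. The part of these markers in the differences of Egfr and Avpr1a was not tested, and in whole liver RNA fewer cells of a type and less RNA per cell cannot be told apart.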

How the data were processed

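Liver RNA of 22 mice was hybridised to Illumina arrays, 1 per mouse. The deposited table gives an intensity and a detection p-value for each of 45281 probes. Background had been subtracted already, since 33.2% to 41.2% of intensity values per array lay below 0. The deposited series matrix holds intensities normalized by steps not given in the sources used here, and served as an alternative. Intensities were normalized with neqc in limma 3.58.1 (R 4.3.3; normexp by detection p, quantile, offset 16) to a log2 scale computed from the deposited values. Between 13285 and 15105 probes were detected per array, and mean intensity ran from 151 (LL replicate 1) to 276 (WW replicate 6). Probe names were matched through a RefSeq gene table: 35713 probes matched 1 gene, 191 several and 9377 none. Probes with a detection p under 0.05 on at least 5 arrays were kept (16268), and the brightest probe was used per gene (9881 genes).

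Group means were fitted on all arrays with lmFit and eBayes, with Benjamini-Hochberg adjustment over all genes and a threshold of 0.05. Erbb2 and Erbb3 failed the filter, so their planned tests could not be run. The fit was tested on simulated data first. Genes were named by rule: the 5 receptors, list genes called in any comparison, up to 3 genes per list with the smallest p, and the 8 most and 3 least correlated with Egfr and with Avpr1a. Only a subset is printed, and some results for single genes are left out of the text. In WL against LL all 5 pairs of same-numbered mice had deviations correlated above 0.1 (r from 0.111 to 0.313). This pairing was seen in the data and not in the labels, so the fit with the replicate number as a block is given there. WL and LL replicates 3, and likewise replicates 5, also shared a slide, so number and slide cannot be told apart in them. The members and lists were chosen with earlier results of these data known. Correlations and the differences in WW against WL carry no test for the receptors.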

Additional observations from a re-analysis of the deposited data

Results flagged for a closer look

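Of 28 sets of values (7 receptor probes in 4 groups) examined for a liver far from the rest of its group, 1 stood out, where chance marks about 1 in 20. It was Avpr1a (probe ILMN_2890935) in WL replicate 5, at 10.43 log2 units against 8.78 in the next highest WL liver, a gap of 0.73 of the range of the group. The same liver was the highest for Egfr (11.34). No difference between both diet effects after weaning passed for any gene, with 0 genes called by limma and 790 at an unadjusted p under 0.05.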

How the results depend on the processing

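Egfr and Avpr1a stayed lower in LW than in LL livers, and short of the threshold, in every alternative run. Egfr ranged from -1.18 to -0.81 log2 units and Avpr1a from -1.25 to -0.82 when each mouse was left out in turn. The deposited series matrix gave -0.56 and -0.35, on a scale with a higher floor. Its median probe read about 245 on every array. Avpr1a in WW replicate 1 read 343 there, against 108 in the deposited table. Log2 differences are smaller on that scale, so sizes from the matrix, here and below, are not comparable with the others. Met was not called in any alternative that tested it, and a stricter detection filter removed it. Erbb2 and Erbb3 could be fitted with no detection filter only, where LW against LL gave -0.063 ± 0.12 and 0.0062 ± 0.077. In WW against WL, Avpr1a moved to -0.85 in the deposited matrix and to -0.81 with probe ILMN_1242999, and Egfr to -0.47 with probe ILMN_2614432, both probes being chosen after seeing the data; leaving out each mouse gave -2.13 to -1.56 for Avpr1a and -1.53 to -1.11 for Egfr. Counts of called genes moved more, and the cause was not tested. In WW against WL the 47 became 125 with the deposited matrix, 2 with no filter, 316 with slide as a fixed block, 122 with slide as a random block, 122 with the replicate block, and 3 (without WL replicate 5) to 81 (without WL replicate 2) on leaving out 1 mouse; WW replicates 2, 4 and 6, WL replicates 1 and 3 and LL replicate 3 also moved it over 1.5 times, to 10, 19, 28, 12, 26 and 71. In LW against LL the 24 became 0, 7 and 5 with the deposited matrix, no filter and slide as a fixed block, 67 with the replicate block, and 4 (without LW replicate 5) to 87 (without LL replicate 1), with 72 without WL replicate 5, 56 without LW replicate 2, and 7 to 15 without LW replicates 1, 3 or 4 or LL replicates 2, 5 or 6. In WL against LL the replicate block gave 2, and in WW against LW slide as a fixed block gave 4 and the replicate block 1; leaving out 1 mouse gave 0 to 1 in both. List genes called in WW against WL numbered 10 with the deposited matrix, 0 with no filter and 15 with the fixed slide block, against 6; in LW against LL they numbered 0 with the deposited matrix and 3 with the replicate block, with only both groups compared, without LW replicate 2 and without LL replicate 1, against 1. Deviations of same-numbered mice correlated above 0.1 in 15 of 30 pairs (r from -0.182 to 0.452). They included 2 of 5 pairs for LW and LL, 2 of 5 for WW and WL, and 3 of 5 for WW and LW. Some same-numbered mice also shared a slide, WW and LW replicates 1 to 4 among them, so number and slide cannot be told apart there. The block changed no other call of a receptor. With the replicate block Egfr was -0.95 (adjusted p = 0.141) and Avpr1a -1.07 (0.142) in LW against LL. Signals near background limit what Met and the dimmer probes can show.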
